A study of Mus musculus with 72 samples.

Results

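The 29 genes described here make, sense, move and store cholesterol. They were chosen by symbol as genes of cholesterol synthesis and uptake, by a rule that used no measured value although earlier results of these data were known, and all 29 were found among the 55573 genes of the count table. Of these, 19 encode enzymes of sterol synthesis, and the other 10 encode sterol sensors, carriers of cholesterol inside the cell, enzymes that esterify it and a ligase that turns over lipoprotein receptors. The receptors themselves are not members, so uptake is covered here only by that ligase and by the fate of cholesterol after it has entered.

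Livers came from adult male mice of strain C57BL/6 (on a C57BL/6J background per the study's methods) that all carried loxP-flanked Bmal1 (Bmal1 fl/fl). The 4 groups were SPF WT (no Cre, conventional specific pathogen-free housing), SPF LKO (Albumin-Cre, same housing), GF WT (no Cre, germ free in isolators) and GF LKO (Albumin-Cre, germ free). Albumin-Cre acts in hepatocytes, so other liver cells of LKO mice kept Bmal1, the core activator of the circadian clock, and no group had Cre without the floxed allele. The germ-free line was rederived from the conventional one, and all mice ate the same autoclaved chow freely. Germ-free mice were thus a separate colony in separate housing, and these cannot be told apart from the absence of microbes. Each group was sampled at zeitgeber times (ZT, hours after lights on) 2, 6, 10, 14, 18 and 22, with 3 mice each time, which gave 18 livers a group and 72 in all.

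Cholesterol is built from acetyl-CoA. The mevalonate steps make isoprenoid units, squalene synthase joins them into squalene, squalene is closed into lanosterol, and a last series of enzymes trims lanosterol to cholesterol. The genes are switched on together by SREBP2 (Srebf2), a factor held in the endoplasmic reticulum. SCAP carries SREBP2 to the Golgi, where it is cut and freed, and INSIG1 and INSIG2 hold SCAP back when sterols are plentiful. In liver, cholesterol is also the raw material of bile acids, which microbes in the gut modify, and both feeding and the clock are known to act on its synthesis.

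Promoter sequence is shown for 4 members on which the results turn or which show the shared letters best, namely an early enzyme that responded strongly (Hmgcs1), the member with the most copies of a shared motif (Mvk) and both INSIG genes, whose behaviour differed. RefSeq windows on GRCm38 that run from 250 bases before to 50 bases after a gene's start were held for 23 of the 29 members, 29 windows in all (Fdps, Fdft1, Sqle, Stard4, Npc1 and Soat2 were not matched). The stretches lie at chr13:119690101-119690350 on the plus strand (Hmgcs1), chr5:114444019-114444268 on the plus strand (Mvk), chr5:28071162-28071362 on the plus strand (Insig1) and chr1:121332590-121332839 on the minus strand (Insig2). Each reads 5′ to 3′ in the direction of transcription, and capitals mark every match, on either strand, to CCAAT (the NF-Y box), CACNCCAC (a sterol response element core), CACGTG (the E-box, which BMAL1 and its partner bind) or AGGTCA (an element that REV-ERB and ROR receptors bind).
Hmgcs1: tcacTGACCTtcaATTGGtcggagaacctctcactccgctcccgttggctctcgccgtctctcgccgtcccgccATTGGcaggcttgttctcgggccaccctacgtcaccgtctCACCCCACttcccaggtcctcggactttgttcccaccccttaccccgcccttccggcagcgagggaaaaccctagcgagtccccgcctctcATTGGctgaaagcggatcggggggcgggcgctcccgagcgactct
Mvk: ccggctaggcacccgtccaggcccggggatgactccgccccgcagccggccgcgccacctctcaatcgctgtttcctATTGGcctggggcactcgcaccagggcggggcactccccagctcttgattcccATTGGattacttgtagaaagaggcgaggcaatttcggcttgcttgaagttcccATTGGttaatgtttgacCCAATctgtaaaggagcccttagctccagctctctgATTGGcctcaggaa
Insig1: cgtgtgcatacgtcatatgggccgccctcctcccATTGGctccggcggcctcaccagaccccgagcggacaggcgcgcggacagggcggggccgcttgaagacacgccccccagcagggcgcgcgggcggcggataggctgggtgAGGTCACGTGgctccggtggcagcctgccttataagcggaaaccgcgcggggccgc
Insig2: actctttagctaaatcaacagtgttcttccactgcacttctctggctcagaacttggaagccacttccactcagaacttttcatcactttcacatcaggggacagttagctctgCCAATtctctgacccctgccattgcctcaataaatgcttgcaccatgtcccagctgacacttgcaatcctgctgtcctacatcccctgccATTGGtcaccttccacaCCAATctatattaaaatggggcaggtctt

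CCAAT stood in 21 of the 29 member windows (72.4%), those of 21 of the 23 matched genes, and in 37.4% of all 32851 promoter windows of that length. Of the 23 matched members, Scap and Acat2 lacked it. CACNCCAC stood in 3 member windows, of Acat2, Hmgcs1 and Insig1 (10.3%), and in 6.24% of all windows. The Insig1 match, at -9 from the RefSeq start, lies beyond the end of the 201 bases printed above. CACGTG was in 6 member windows of 5 genes (Dhcr7, Hsd17b7, Insig1, Sc5d and Scap; 20.7% against 7.15%), and AGGTCA in 5 windows of 3 genes (Dhcr7, Hmgcs1 and Insig1; 17.2% against 16.3%). In Insig1 the AGGTCA and CACGTG matches overlap. Matches are a description of these letters, and no binding was measured.

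Libraries held 17369927 to 22076113 counts (median 19106725.5), and the lowest count of any member in any library was 34, for Idi1 in SPF WT. The samples are bulk liver, so fewer cells of a type and less RNA per cell cannot be told apart. Summed levels of 5 hepatocyte markers were 82552 to 127058 CPM (counts per 1000000) in SPF WT, 42807 to 120567 in SPF LKO, 109391 to 162386 in GF WT and 52870 to 77186 in GF LKO, and no marker was at 0. Medians of that sum were 104533, 57888, 132715 and 59279 CPM in the same order, lower in LKO than WT in both microbial states. Of those 5 markers, 3 were called higher in GF than in SPF in either genotype, and 1 was called lower in GF LKO than in SPF LKO. By genotype, 1 was lower in LKO than WT in SPF mice, and 2 were higher and 2 lower in LKO than WT in GF mice. Sums of the markers of other cells were small, with medians of 170 to 225 CPM for Kupffer cells, 127 to 137 for endothelial cells, 263 to 302 for stellate cells, 43.8 to 90.7 for cholangiocytes and 7.4 to 12.3 for lymphocytes. Of 5 Kupffer markers, 4 were lower in LKO than WT in SPF mice, 2 were lower in LKO than WT in GF mice, 1 was lower in GF LKO than in SPF LKO, and 0 of 5 differed between GF WT and SPF WT. Of 5 cholangiocyte markers, 1 and 2 were higher in LKO than WT in SPF and GF mice, and 2 and 1 were lower in GF than SPF in WT and LKO mice. The part of these differences in the results was not tested. Reads were counted without strand and without reads shared between genes, which matters for members that share sequence: 45.9% of the 50-base windows of the Acat2 transcript also occur in other genes, 30.7% of Fdft1 and 30.5% of Idi1, and 26.7% of the exon bases of Fdps overlap another annotated gene. Levels of these 4 are therefore the least certain. Smaller overlaps with other annotated genes were found for further members, among them Scap (13.2% of exon bases), Hmgcs1 (12.1%) and Tm7sf2 (12.1%). Each gene is counted alike in every library.

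In all, 4 libraries went against their labels by clock genes that are not members. Npas2 was at 0.22 CPM in the library labelled replicate 2 of SPF LKO at ZT14, against 25.4 and 24.2 in its 2 companions, and at 1.81 in that labelled replicate 1 of SPF LKO at ZT18, against 36.7 and 27.6. Nr1d1 was at 84.9 CPM in the library labelled replicate 3 of SPF WT at ZT14, against 8.63 and 3.09, and at 9.34 in that labelled replicate 3 of GF WT at ZT6, against 50.6 and 49.4. They were kept under their labels, and the counts of called members in the pooled comparisons, at the ZT they touch and for rhythms are also given without these 4.

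The members spanned a wide range of levels per transcript length. In SPF WT the highest median was that of Sc5d, a desaturase near the end of the path, at 315 TPM (175 to 467), followed by Insig1 at 226, Ebp at 219, Insig2 at 207 and Hmgcs1, the cytosolic HMG-CoA synthase, at 115. The lowest were Fdps at 3.65 TPM, Idi1 at 3.30 and Soat1 at 1.25 (0.869 to 3.41). The ranges of Sc5d and Insig1, next to each other in this order, overlapped in SPF WT livers (Insig1 133 to 416 TPM), as did those of Fdps and Idi1 (1.22 to 8.20 against 1.19 to 9.69), so these neighbours in the order were not separated.

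The first question was how microbes bear on these genes when the liver clock is intact. With the 6 ZT pooled, 25 of 29 members differed between GF WT and SPF WT livers, 22 higher and 3 lower in GF, where 31.8% of all 12776 genes tested were called (14.2% higher). All 19 enzymes were called and 18 of them were higher. The median log2 fold change was 1.08 over the enzymes and 0.83 over the 29 members, beside -0.02 over all genes. Without the 4 libraries 26 members were called (32% of all genes).

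Of the 8 mevalonate genes, 7 rose with microbes absent. Hmgcs1 ranged from 59.3 to 448 CPM in SPF WT (median 209.8) and from 133 to 989.5 in GF WT (median 589), and its log2 fold change was 1.36 ± 0.26 (SE; adjusted p = 0.000142). The ranges overlapped, and the lowest GF WT value was that of the library labelled ZT6 replicate 3. Mvd, which makes isopentenyl diphosphate, rose by 1.43 ± 0.27 on the log2 scale and Idi1, the isomerase of that product, by 1.41 ± 0.18. Idi1 went from a median of 4.99 CPM (1.98 to 12.8) to 14.9 (9.63 to 25.2). Smaller increases were those of Pmvk (1.12 ± 0.19), Fdps (1.03 ± 0.18), Mvk (0.98 ± 0.15) and Acat2 (0.83 ± 0.11), which encode a kinase, farnesyl diphosphate synthase, a kinase and a thiolase. Ggps1, which leads from farnesyl diphosphate to protein prenylation rather than to sterols, fell by 0.20 ± 0.07 (adjusted p = 0.0203), and that call was lost with no filter on low counts (adjusted p = 0.101).

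The squalene steps rose together. Sqle, squalene epoxidase and a flux-controlling step, ranged from 10.9 to 129.7 CPM in SPF WT (median 33) and from 35.4 to 177 in GF WT (median 109), a log2 fold change of 1.41 ± 0.24. The highest SPF WT value, 129.7, was in the library labelled ZT14 replicate 3. Fdft1, squalene synthase, and Lss, lanosterol synthase, were both higher by 1.08 (SE 0.15 and 0.18).

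All 8 enzymes after lanosterol were higher in GF WT. Msmo1, a sterol methyl oxidase, was among the members with the largest changes and went from a median of 168 CPM (70.8 to 404) to 575 (205 to 707), a log2 fold change of 1.45 ± 0.19 (adjusted p = 7.33e-07). Cyp51, the lanosterol demethylase, rose by 1.30 ± 0.17, Nsdhl by 1.27 ± 0.18, Dhcr7, which reduces a precursor to cholesterol, by 1.06 ± 0.18 and Hsd17b7 by 0.77 ± 0.12. The groups were set apart most cleanly by a pair of less variable enzymes. Tm7sf2, a sterol reductase, ranged from 86 to 185 CPM in SPF WT and from 166 to 273 in GF WT, with 17 of 18 GF WT livers above every SPF WT liver (log2 fold change 0.88 ± 0.08, adjusted p = 2.31e-09). Ebp, a sterol isomerase, ranged from 158 to 268 and from 212 to 401 CPM, again with 17 of 18 above (0.68 ± 0.07). Sc5d, with the highest median TPM in SPF WT, changed less (0.47 ± 0.11).

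Members outside the enzymes moved by less and in both directions. Srebf2 itself rose by 0.39 ± 0.11 and Insig1, a direct SREBP2 target, by 0.47 ± 0.12 in GF WT, whereas Scap (0.17 ± 0.10, adjusted p = 0.18) and Insig2 (0.07 ± 0.27, adjusted p = 0.858) were not called. Without the 4 libraries Scap was called too (0.25, adjusted p = 0.0225). Of the carriers, Stard4, a soluble sterol carrier, rose by 0.40 ± 0.12 and Npc2, which hands cholesterol to NPC1 in the lysosome, by 0.37 ± 0.05, while Npc1 was not called (0.10 ± 0.13). Both esterifying enzymes fell, Soat1 by 0.53 ± 0.11 and Soat2, the hepatocyte form, by 0.45 ± 0.11. Soat2 was at a median of 23.1 CPM (14.7 to 35.9) in SPF WT and 19.4 (11.1 to 23.5) in GF WT. Mylip, the ligase that marks lipoprotein receptors for breakdown, was not called (-0.17 ± 0.11).

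**Figure D1:**
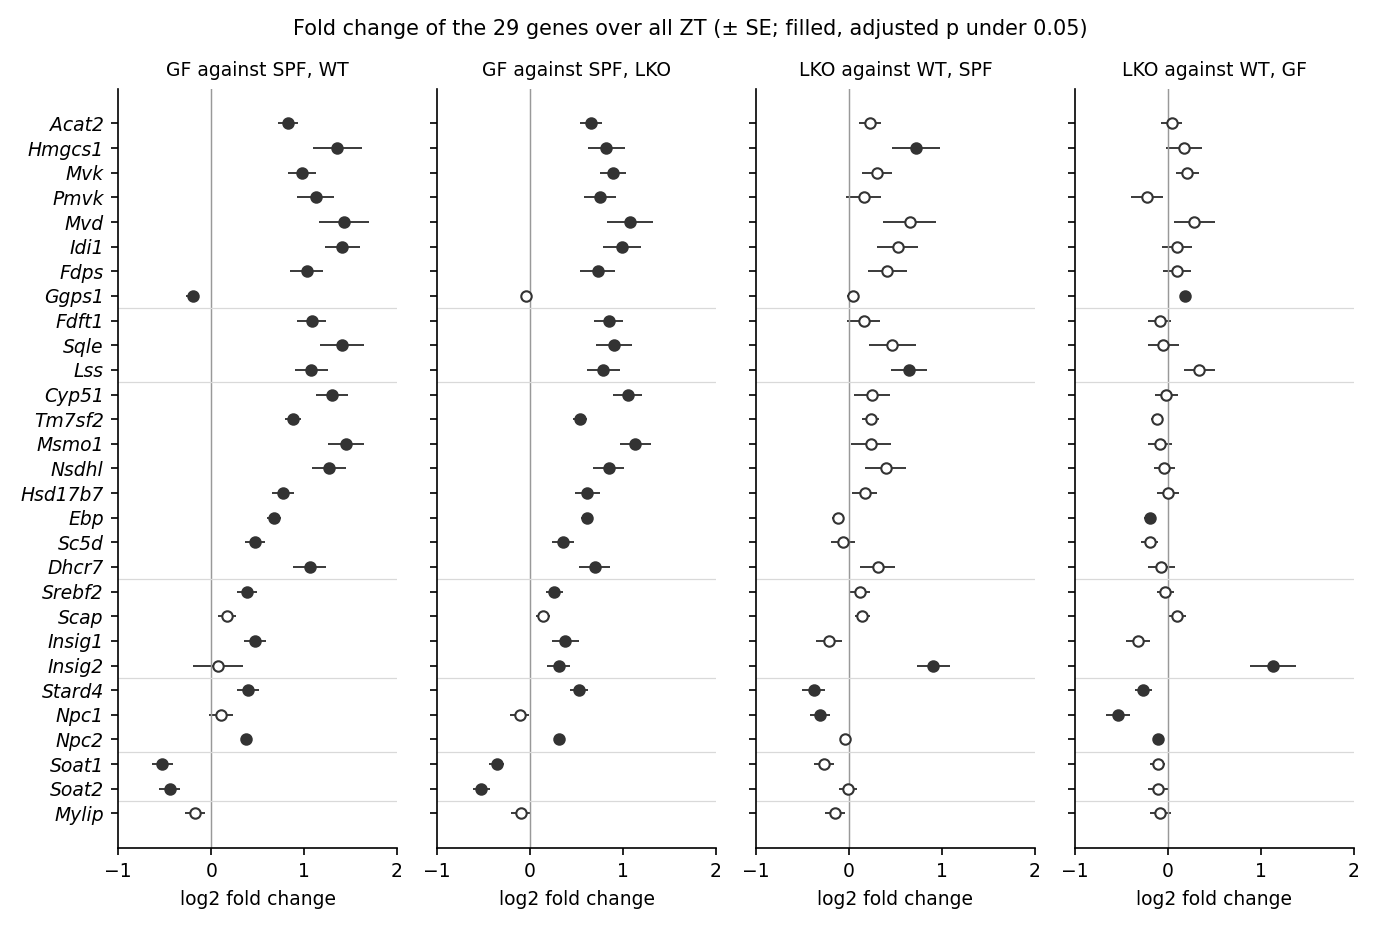
Log2 fold change (± SE) of each of the 29 genes in the 4 comparisons of groups, with the 6 ZT pooled, ordered by step and with filled symbols for an adjusted p under 0.05. In both germ-free comparisons 18 of the 19 enzymes lie to the right of 0 and are called, while few of them are called in the comparisons of genotype.

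The same comparison in mice without the hepatocyte clock gave 25 called members, 23 higher and 2 lower in GF LKO, where 36.4% of all 13010 genes tested were called (18.1% higher). The median log2 fold change was 0.79 over the enzymes, 18 of 19 of which were called, and 0.62 over all 29. Msmo1 (1.13 ± 0.17), Mvd (1.07 ± 0.24), Cyp51 (1.05 ± 0.16) and Idi1 (0.99 ± 0.20) had the largest increases. Ebp showed no overlap at all, with 147 to 227 CPM in SPF LKO and 241 to 366 in GF LKO (0.61 ± 0.06, adjusted p = 1.1e-10). Soat1 (-0.36 ± 0.08) and Soat2 (-0.53 ± 0.09) were lower in GF LKO, and 13 of 18 GF LKO livers had less Soat2 than any SPF LKO liver. Ggps1, Scap, Npc1 and Mylip were not called. Insig1 (0.38 ± 0.15, adjusted p = 0.0433) and Insig2 (0.31 ± 0.12, adjusted p = 0.0441) lay near the threshold, and leaving out any of 17 and 19 single libraries ended their calls (adjusted p up to 0.0837 and 0.0743). Without the 4 libraries 24 members were called (36.7% of all genes) and Insig2 was not (adjusted p = 0.0802).

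With the ZT pooled, no member passed the test for a genotype effect that differs between GF and SPF mice. The test called 0 of 29 members and 0.438% of all genes, and 0 members by DESeq2. Without the 4 libraries it called 0 members and 0.356% of all genes. Tm7sf2 (-0.36 ± 0.11, adjusted p = 0.225) was the 1 member at an unadjusted p under 0.05. The fitted difference was negative for 18 of the 19 enzymes and positive for Ggps1, and the most negative were -0.56 ± 0.33 for Hmgcs1 and -0.52 ± 0.31 for Sqle. The 4 comparisons share groups of livers, so their counts are not independent of each other.

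A score that averages the 19 enzymes, each as log2(CPM + 0.5) relative to its own mean over 72 livers, shows the group levels in a single number. It was -0.62 ± 0.51 (SD, n = 18) in SPF WT, -0.31 ± 0.48 in SPF LKO, 0.46 ± 0.35 in GF WT and 0.47 ± 0.35 in GF LKO. Germ-free livers were thus higher by 1.09 in WT, a 2.13-fold difference, and by 0.78 in LKO, a 1.72-fold difference. The mean of every ZT was higher in GF than in SPF in both genotypes, and gene by gene the mean was higher at all 6 ZT for 18 of 19 enzymes in WT and 15 of 19 in LKO. In WT the difference ran from 1.52-fold at ZT6 to 3.10-fold at ZT2, and in LKO from 1.25-fold at ZT2 to 2.11-fold at ZT10. With the 4 libraries left out, the LKO difference was larger at ZT14 than at ZT10, with means of 0.19 in GF LKO and -1.02 in SPF LKO at ZT14. Without the 4 libraries the means were -0.68, -0.31, 0.51 and 0.47. The 3 SPF WT livers at ZT14 scored -1.27, -1.23 and 0.34, the last being the library labelled replicate 3, which was the highest of all 18 SPF WT livers.

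**Figure D2:**
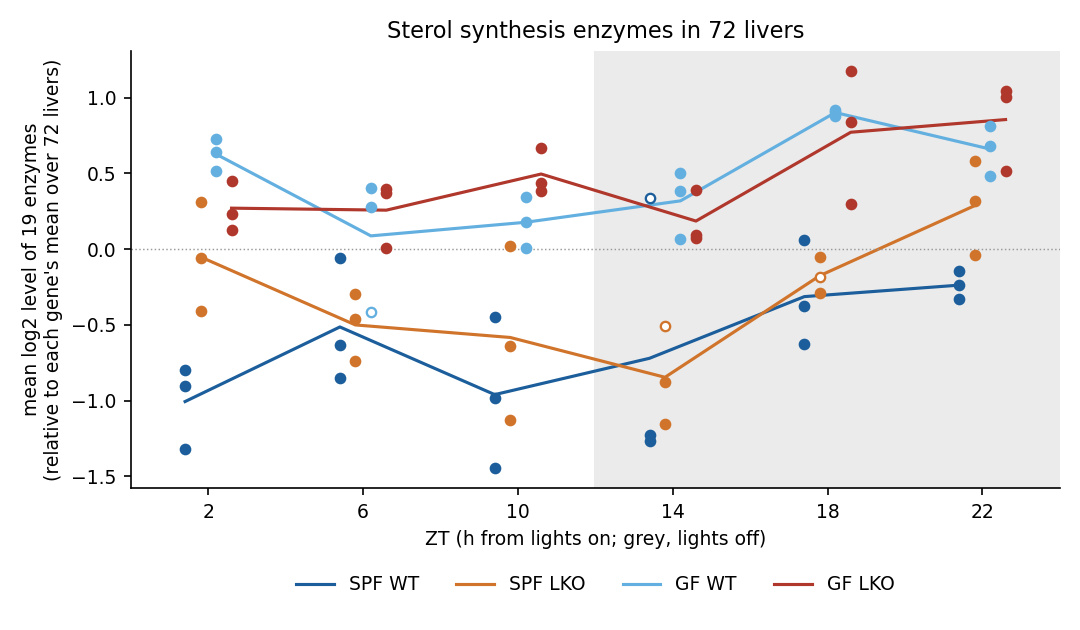
Enzyme score (mean log2 level of 19 sterol synthesis enzymes relative to each gene's mean) against ZT in hours for the 72 livers, 1 symbol a liver, with lines through the group means, grey for lights off and open symbols for the 4 libraries that went against their labels. Germ-free livers lie mostly above conventional ones, and at ZT2 the SPF WT livers lie lowest of the 4 groups.

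Loss of the clock in hepatocytes was then compared within each microbial state. With ZT pooled, 5 of 29 members differed between SPF LKO and SPF WT, where 23.1% of all 13159 genes were called, a larger share than among the members. Hmgcs1 (0.73 ± 0.26, adjusted p = 0.0371), Lss (0.64 ± 0.19, adjusted p = 0.013) and Insig2 (0.91 ± 0.18, adjusted p = 0.000186) were higher in LKO, and Stard4 (-0.38 ± 0.12, adjusted p = 0.019) and Npc1 (-0.31 ± 0.11, adjusted p = 0.0293) were lower. The Hmgcs1 call ended when any of 12 single libraries was left out (adjusted p up to 0.0728), and the Npc1 call without any of 3, among them the library labelled replicate 3 of SPF WT at ZT14 (adjusted p up to 0.0566). That library also held back calls: without it 9 members were called, and without all 4 libraries 10 (27.9% of all genes, a smaller share than among the members), beside 3 without SPF WT ZT10 replicate 2. The 5 added without the 4 libraries were the enzymes Mvk (0.44), Mvd (0.80), Idi1 (0.67), Sqle (0.66) and Tm7sf2 (0.26), all higher in LKO.

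In germ-free mice 6 of 29 members differed between genotypes, against 30.8% of all 12662 genes, and 6 did without the 4 libraries (30.1%). Insig2 (1.13 ± 0.24, adjusted p = 0.000364) and Ggps1 (0.19 ± 0.06) were higher in GF LKO, and Npc1 (-0.54 ± 0.13, adjusted p = 0.000903), Stard4 (-0.26 ± 0.09), Ebp (-0.20 ± 0.06) and Npc2 (-0.11 ± 0.04) were lower. The enzymes had a median log2 fold change of -0.02 in this comparison and 0.25 in SPF mice. Insig2, Stard4 and Npc1 were thus called in both microbial states with the same sign.

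Within single ZT, with 3 livers a group, the genotype comparison in SPF mice called 14, 2, 3, 0, 0 and 3 members at ZT2, 6, 10, 14, 18 and 22, against 6.89%, 7.26%, 11.9%, 0%, 0.015% and 3.31% of all genes. At an unadjusted p under 0.05, ZT14 and ZT18 had 4 and 1 members, and DESeq2 made 0 and 0 calls there. Left without the 4 libraries, ZT6 and ZT14 each had 3 calls (10.4% and 5.51% of all genes) and ZT18 had 0 (4.63%), with 2 livers left in the SPF WT and SPF LKO groups at ZT14. Those at ZT14 were Insig2 (1.21), Hmgcs1 (1.13) and Insig1 (-0.74).

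The 14 calls at ZT2 were all enzymes and all higher in LKO. Hmgcs1 stood at 233, 217 and 165 CPM in SPF WT and at 392, 709.7 and 547 in SPF LKO (log2 fold change 1.42, adjusted p = 0.000558). Sqle stood at 28.6, 27.8 and 15 CPM and at 48.8, 102 and 62.8 (1.57, adjusted p = 0.00231), and Fdps at 3.5, 4.89 and 3.55 and at 8.64, 11.9 and 10.9 (1.39, adjusted p = 0.00115). All 3 LKO livers exceeded all 3 WT livers for these genes, as they did for all 14. The 14 were picked by their calls in these same livers, so this order describes them and adds no support. Lss (1.62), Mvd (1.72) and Idi1 (1.53) had the other large increases, and the smallest of the 14 was that of Tm7sf2 (0.59). Srebf2 was at 0.59 (adjusted p = 0.069) and both INSIG genes and all carriers were not called at that time.

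Germ-free livers at ZT2 showed no such difference. The same 14 genes had log2 fold changes of -0.67 to 0.17 between GF LKO and GF WT, and 0 of all 29 members were called (4.21% of all genes), 13 having an unadjusted p under 0.05 and DESeq2 calling 1. Hmgcs1 stood at 787, 836 and 989.5 CPM in GF WT and at 631, 549 and 520.3 in GF LKO. For Hmgcs1 the WT livers were thus the higher ones without overlap, though the gene was not called in this comparison. Fdps stood at 11.2, 15.4 and 18.1 and at 11.8, 9.85 and 8.87. A test of the difference between the genotype effects at ZT2, added after values by ZT had been seen, called 2 members, Hmgcs1 (-2.03 ± 0.27, adjusted p = 0.0394) and Fdps (-1.94 ± 0.28, adjusted p = 0.0434), which were 2 of the 3 genes called among 13596 (0.0221%). The remaining enzymes did not pass, among them Sqle (-2.25, adjusted p = 0.0705). At an unadjusted p under 0.05 there were 19 members, and DESeq2 made 13 calls. The shares of all genes by these looser measures at ZT2 are not given, so such counts are not read as results about the members. The calls of Hmgcs1 and Fdps were fragile: leaving out single ZT2 livers ended that of Hmgcs1 for 7 of 12 and that of Fdps for 9 of 12 (adjusted p up to 0.163 and 0.185). Counts of called members ran from 0, without for example SPF WT replicate 3, to 7 without SPF LKO replicate 1. At the other 5 ZT the test called 0 members, with and without the 4 libraries (0%, 0.00744%, 0%, 0% and 0.0147% of all genes, in order) and DESeq2 0, with 0, 1, 0, 3 and 2 at an unadjusted p under 0.05.

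**Figure D3:**
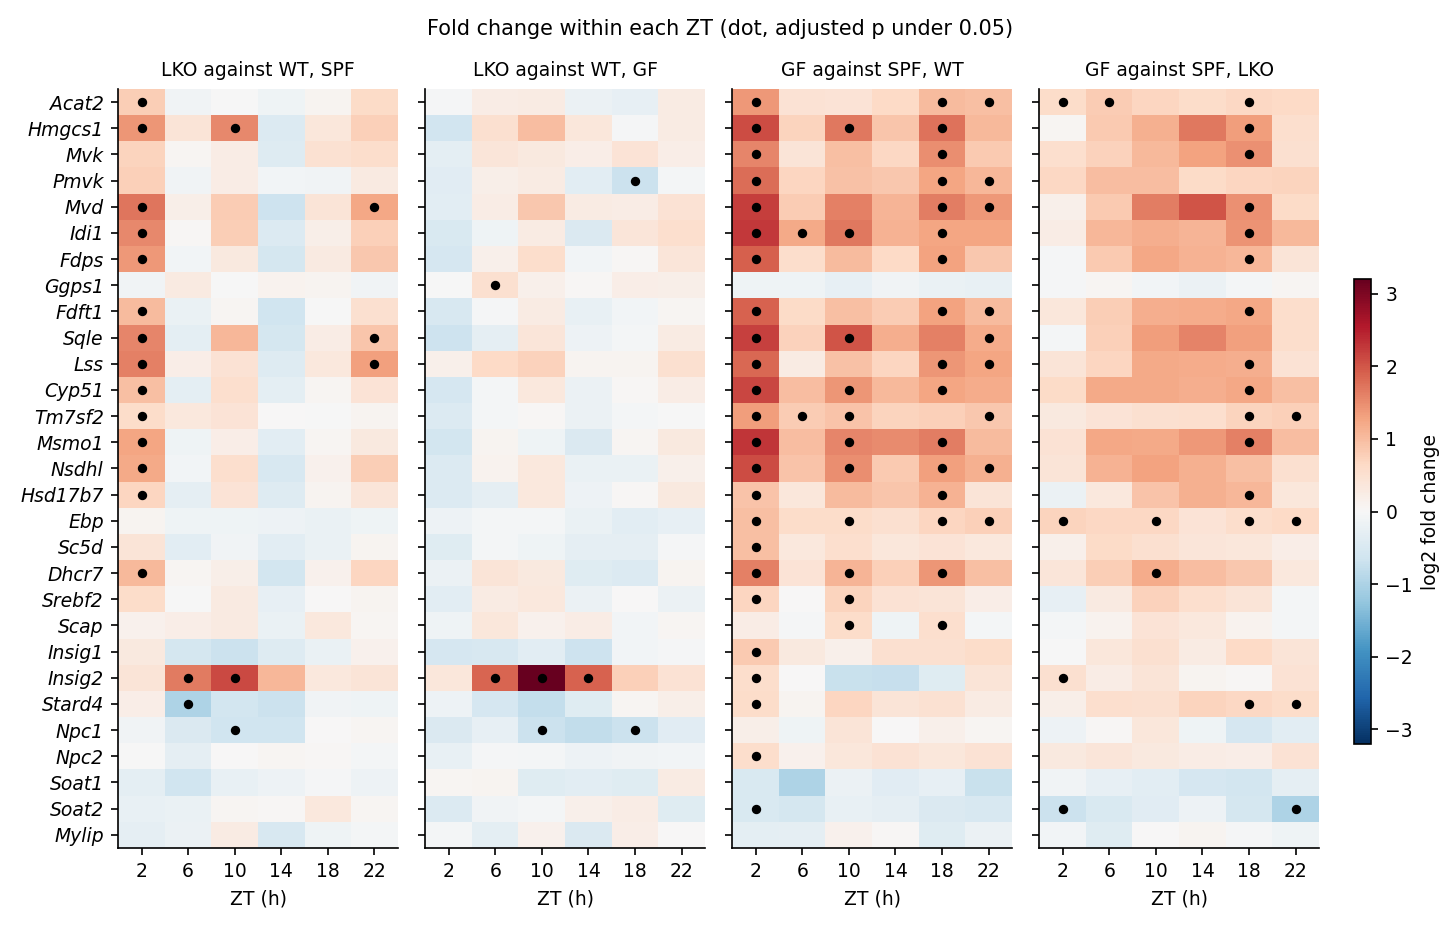
Log2 fold change of each of the 29 genes (rows, ordered by step) at each ZT in hours (columns), red for higher and blue for lower, with a dot for an adjusted p under 0.05, in the 4 comparisons of groups. The 14 dots at ZT2 for genotype in SPF mice stand on enzymes, and that column has no dot in germ-free mice.

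In germ-free mice the genotype comparison called 2, 2, 1, 2 and 0 members at ZT6 to ZT22, against 11.7%, 13.1%, 6.1%, 8.43% and 4.44% of all genes (at ZT22 4 had an unadjusted p under 0.05, with 0 calls by DESeq2), of which Ggps1 at ZT6 (0.51) and Pmvk at ZT18 were the enzymes. When the 4 libraries were left out the counts at ZT6, ZT14 and ZT18 were 2, 3 and 3 (9.69%, 13.6% and 11% of all genes), and Ggps1 was no longer called at ZT6 (adjusted p = 0.0624).

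The germ-free difference in WT livers was also tested ZT by ZT. It called 24, 2, 11, 0, 16 and 9 members from ZT2 to ZT22, against 10.1%, 2.62%, 2.89%, 0.0751%, 0.983% and 0.516% of all genes. At ZT2, 18 of 19 enzymes were called, with Msmo1 at 2.30, Idi1 at 2.27 and Mvd at 2.21, and Srebf2 (0.69), Insig1 (0.85), Insig2 (0.57), Stard4 (0.59) and Npc2 (0.55) rose with them while Soat2 fell by 0.50. At ZT14 the counts depended on the doubted libraries. Sqle stood there at 16.3, 22.2 and 129.7 CPM in SPF WT and at 142, 92.8 and 146 in GF WT. With all libraries 13 members were at an unadjusted p under 0.05 and DESeq2 made 2 calls, and once replicate 3 of SPF WT and the other 3 doubted libraries were left out, 21 members were called (2.32% of all genes). Sqle then differed by 2.70 and Hmgcs1 by 2.33. ZT6 then had 7 calls (3.69%) and ZT18 had 18 (1.84%).

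Without the hepatocyte clock the germ-free difference was called for 4, 1, 2, 0, 14 and 4 members from ZT2 to ZT22, against 8.92%, 0.309%, 0.982%, 0.0601%, 3.71% and 2.25% of all genes. At ZT2 those were Acat2 (0.59), Ebp (0.71), Insig2 (0.51) and Soat2 (-0.68), and Hmgcs1 was at 0.05 (adjusted p = 0.889). At ZT18 the 14 were 13 enzymes, led by Msmo1 (1.62), Mvk, Idi1 and Mvd (each 1.45), and Stard4 (0.66). ZT14 had 17 members at an unadjusted p under 0.05, and DESeq2 made 4 calls there. Omission of the 4 libraries raised ZT6 from 1 to 10 calls (2.76% of all genes) and ZT14 from 0 to 16 (0.756%), and lowered ZT18 from 14 to 2 (0.45%), which were Msmo1 at 1.58 and Stard4 at 0.80. The ZT14 and ZT18 fits then held 2 SPF LKO livers, and the ZT6 fit held 3 livers in both LKO groups and 2 in GF WT.

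**Figure D4:**
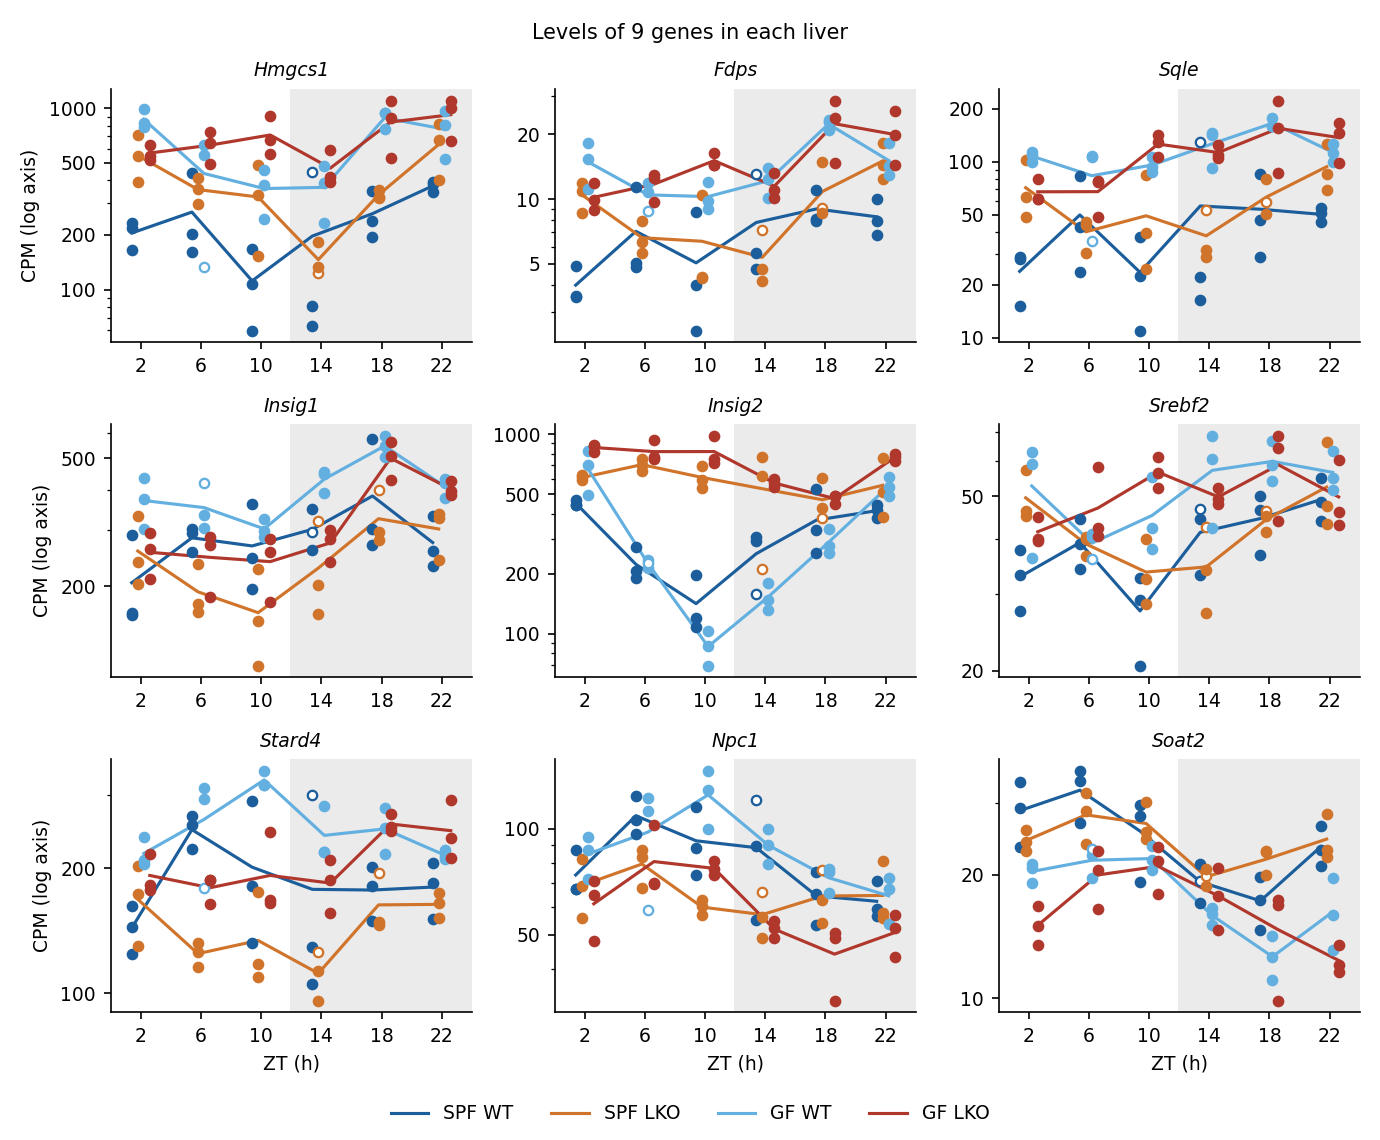
CPM on a log axis against ZT in hours for 9 members in each of the 72 livers, 1 symbol a liver, with lines through group means, grey for lights off and open symbols for the 4 libraries that went against their labels. For Insig2 the WT groups dip at ZT10, to 69.2 CPM in a GF WT liver, and every LKO liver is at 539 CPM or more there.

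Insig2 was the member in which genotype made the largest difference. INSIG2 retains SCAP in the endoplasmic reticulum, and its gene, unlike Insig1, is not a classical SREBP2 target. In SPF WT it stood at 443, 471 and 442 CPM at ZT2 and at 197, 119.8 and 109 at ZT10. In SPF LKO it stood at 539, 593 and 692 CPM at ZT10, a log2 fold change of 2.10 (adjusted p = 1.9e-05), and ZT6 gave 1.66 (adjusted p = 1.41e-05). The 3 GF WT livers at ZT10 were at 69.2, 86.5 and 103 CPM and the 3 GF LKO livers at 756, 986 and 717, a 9.50-fold difference (log2 3.25, adjusted p = 3.72e-07). GF mice also differed at ZT6 (1.86, adjusted p = 3.2e-06) and ZT14 (1.90, adjusted p = 0.0148). None of the groups overlapped at ZT6 or ZT10 in either microbial state. At ZT2, ZT18 and ZT22 Insig2 was not called in either state, with log2 fold changes of 0.42, 0.35 and 0.42 in SPF and 0.35, 0.76 and 0.47 in GF mice, though the value at ZT18 in GF mice was called without the 4 libraries. At ZT14 in SPF mice the value was 1.07 (adjusted p = 0.327), with 771, 212 and 618 CPM in LKO and the low value in the library labelled replicate 2, and without the 4 libraries it was called. The difference of the genotype effects at ZT10 was 1.15 (adjusted p = 0.534).

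The sterol carriers Stard4 and Npc1 were lower in LKO. At ZT6 Stard4 stood at 266, 222 and 254 CPM in SPF WT and at 116, 132 and 126 in SPF LKO (-0.99, adjusted p = 0.00282), with no overlap. In GF mice at ZT6 it stood at 313, 294 and 179 CPM in WT and at 187, 187 and 164 in LKO (-0.54, adjusted p = 0.0551), and once the library labelled replicate 3 of GF WT, which held the 179, and the other 3 were left out, it fell by 0.75 (adjusted p = 0.000781). Npc1, the lysosomal membrane protein that exports cholesterol, stood at ZT10 at 74.2, 115 and 88.4 CPM in SPF WT and at 57, 60.2 and 62.8 in SPF LKO (-0.63, adjusted p = 0.0171). At the same ZT it stood at 99.7, 129 and 146 in GF WT and at 77.1, 80.8 and 73.8 in GF LKO (-0.69, adjusted p = 0.00754). It also fell by 0.69 at ZT18 in GF mice (adjusted p = 0.0288), together with Pmvk (-0.69, adjusted p = 0.0335).

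Rhythm was tested in each group as a 24 h cosine. In SPF WT 4 of 29 members were rhythmic (16.9% of all 12099 genes tested), namely Pmvk, Insig2, Npc1 and Soat2, and 6 without the 4 libraries (20.1%), with Hmgcs1 and Scap added. In SPF LKO 19 members were rhythmic (24.5% of genes), 14 of them enzymes, in GF WT 20 (29.4%), 14 of them enzymes, and in GF LKO 18 (38.6%), 11 of them enzymes. With the 4 libraries left out these 3 counts were 18 (21.8%), 22 (35.2%) and 18 (38.6%). The median amplitude of the enzymes, as log2 distance from mean to peak, was 0.21 in SPF WT, 0.56 in SPF LKO, 0.33 in GF WT and 0.28 in GF LKO, and in SPF WT it was 0.29 without the 4 libraries. Called rhythms of enzymes in SPF LKO peaked between ZT21.6 and ZT0.9, late in the dark and around lights on. Those in GF WT peaked between ZT16.6 and ZT23.0, and those in GF LKO between ZT16.3 and ZT23.1.

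Group averages by ZT show the same profiles in CPM. Hmgcs1 averaged 112 CPM at its lowest ZT, ZT10, and 373 at ZT22 in SPF WT, and 146 at ZT14 and 632 at ZT22 in SPF LKO. The SPF WT average at ZT14 rests on the library labelled replicate 3, at 448 CPM, beside 63.2 and 80.6 in the other 2 livers. In GF WT the same gene averaged 361 CPM at ZT10 and 886 at ZT18, and in GF LKO 468 at ZT14 and 923 at ZT22. Its lowest average in GF WT was thus near its highest in SPF WT. Lss ran from 25.6 CPM at ZT2 to 56.4 at ZT18 in SPF WT and from 38.6 at ZT14 to 114 at ZT22 in SPF LKO, and Mvd from 6.08 at ZT10 to 20.3 at ZT18 and from 9.13 at ZT14 to 33.6 at ZT22. Enzyme averages were lowest in SPF LKO at ZT14 for Idi1 (4.47 CPM), Fdps (5.36), Sqle (37.9), Cyp51 (135), Msmo1 (147) and Sc5d (425) too. In SPF WT the enzyme score at ZT14 averaged -0.72 with all libraries and -1.25 without the library labelled replicate 3. Its averages at ZT2 and ZT10 were -1.01 and -0.96. The lowest ZT of the enzymes as a set in SPF WT thus depended on that library. Soat2 and Npc1 ran the other way in SPF WT, with their highest averages at ZT6 (32.1 and 109 CPM) and their lowest at ZT18 and ZT22 (17.3 and 62.3). Soat2 was called rhythmic by the cosine fit in all 4 groups (amplitudes 0.44, 0.19, 0.40 and 0.37). Its call in SPF LKO lay near the threshold (adjusted p = 0.0431) and ended without the 4 libraries (adjusted p = 0.07).

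A rhythm called in 1 group and not in another is not by itself a difference, and for most members the test of the difference was not passed. The test of rhythm differences called 1 member between SPF genotypes (1.12% of all genes), 2 between GF genotypes (6.38%), 0 between GF WT and SPF WT (0.047%) and 3 between GF LKO and SPF LKO (5.34%). At an unadjusted p under 0.05 there were 10, 5, 2 and 12 members. With those libraries left out the counts were 1 (2.77%), 2 (7.27%), 0 (0.0782%) and 1 (3.07%). DESeq2 was not run for rhythms. The rank test, over 13484 genes, called 0 members and 0 genes in SPF LKO, where 20 members and 4433 genes had an unadjusted p under 0.05. As no gene of any kind passed there, that count does not bear on the members in particular. The paper reported oscillating transcripts in SPF LKO by empirical JTK_CYCLE. In SPF WT, with 3830 genes at an unadjusted p under 0.05, the rank test called 2 members and 893 genes. It called 15 and 2430 in GF WT, and 8 and 3498 in GF LKO. With ZT as a factor in place of the cosine 7 members were called in SPF LKO, 14 in GF WT and 18 in GF LKO. The share of all genes called with ZT as a factor is not given here.

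Insig2 had the largest amplitude of the members in GF WT. It was 1.40 in GF WT with a peak at ZT23.5, a 6.97-fold swing from trough to peak, and 0.78 in SPF WT with a peak at ZT22.2. In LKO livers it was 0.25 in SPF, not called, and 0.40 in GF with a peak at ZT4.6. The rhythm differed between genotypes in SPF (adjusted p = 0.0173, and 0.00174 without the 4 libraries) and in GF mice (adjusted p = 6.82e-09). Stard4 differed between GF genotypes (adjusted p = 0.00611), with a peak at ZT10.3 in GF WT and at ZT19.9 in GF LKO. With ZT as a factor the SPF call of Insig2 and that of Stard4 (adjusted p = 0.0537) ended, and the GF call of Insig2 stood.

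The other rhythm differences lay between GF LKO and SPF LKO, and all 3 ended with ZT as a factor. Mvd peaked at ZT22.1 in SPF LKO and ZT17.8 in GF LKO (adjusted p = 0.0427), with amplitudes of 0.91 and 0.78. Hsd17b7 peaked at ZT23.4 and ZT16.3 (adjusted p = 0.027). Srebf2 was called in SPF LKO with a peak at ZT23.1 and not in GF LKO (fitted peak ZT14.9), and the rhythms differed (adjusted p = 0.0189). Without the 4 libraries Srebf2 remained called (adjusted p = 0.0162), and Hsd17b7 and Mvd were not (adjusted p = 0.057 and 0.0775).

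A list of 38 other genes of sterol and isoprenoid metabolism was read beside the members. Between GF WT and SPF WT 9 of them were called, 6 higher and 3 lower, and between GF LKO and SPF LKO 14, 6 higher and 8 lower. Of all genes 31.8% and 36.4% were called. The list lay below that share in WT and near it in LKO, so what follows describes single genes. The largest increases were those of Acss2, which makes acetyl-CoA from acetate (1.23 ± 0.17 in WT and 0.76 ± 0.17 in LKO), and Tmem97, a sterol-regulated membrane protein (0.72 ± 0.07 and 0.65 ± 0.06). Cyb5r3, which passes electrons to sterol desaturation (0.36 ± 0.07 and 0.31 ± 0.05), rose in both genotypes. Acly, which makes cytosolic acetyl-CoA from citrate, rose in WT (0.48 ± 0.18). Gramd1a, which moves cholesterol from the plasma membrane, fell in both (-0.58 ± 0.09 and -0.36 ± 0.09), and in LKO Srebf1 (-0.71 ± 0.19) and Vldlr (-0.91 ± 0.24) fell too.

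For genotype, 10 of the 38 were called in SPF mice, 7 higher and 3 lower, and 14 in GF mice, 7 higher and 7 lower. Of all genes 23.1% and 30.8% were called, which is near the shares in this list. These counts rest on all libraries. Nceh1, a cholesteryl ester hydrolase, was lower in LKO in both (-0.51 ± 0.10 and -0.81 ± 0.14), as was Erlin1, a partner in sterol-driven degradation (-0.36 ± 0.07 and -0.48 ± 0.08). Pdss2, of ubiquinone synthesis, was higher in both (0.31 ± 0.06 and 0.43 ± 0.06). Gramd1b, a relative of Gramd1a, was higher in GF LKO (1.15 ± 0.15), was not called in SPF mice (0.31 ± 0.15, adjusted p = 0.138), and was the only one of the 38 for which the 2 genotype effects differed (0.83 ± 0.21, adjusted p = 0.0498).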

How the data were processed

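Liver RNA of 72 male mice was sequenced as stranded mRNA libraries, 18 in each of 4 groups and 3 at each of 6 ZT. The deposited values are raw read counts per gene, which the authors made by aligning single-end reads with STAR 2.6.1b to GRCm38 and counting exon reads with featureCounts 2.0.0, with neither strand nor reads that mapped or overlapped more than once. Libraries held 17369927 to 22076113 counts. Group, ZT and replicate came from the labels.

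The counts were tested with edgeR 4.0.16 in R 4.3.3 (filterByExpr, TMM factors, quasi-likelihood test) over all genes, with Benjamini-Hochberg adjusted p under 0.05 as the call. With ZT pooled, a pair of groups was fitted on its 36 libraries, a single ZT on the 12 taken then, and rhythms as a cosine and sine with a period of 24 h. CPM are counts per 1000000 after TMM scaling, and the enzyme score is the mean of log2(CPM + 0.5) over 19 enzymes, each relative to its own mean. DESeq2 1.42.0, other scaling, no filter, left-out libraries, a replicate block and a rank test of the JTK_CYCLE kind were alternatives. Python 3.11.15 (numpy 2.4.6, pandas 2.3.3, scipy 1.17.1, matplotlib 3.10.9) made summaries and plots. Each count fit was tested on simulated data.

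The members and the lists were chosen with earlier results of these data known. All 29 members are described, and values by ZT are given for those with a called pooled change of at least 0.5 in log2 or a called difference between contrasts, and for the 3 with the largest amplitude in SPF WT, in sentences or in plots. Promoter sequences are from RefSeq on GRCm38. Libraries with equal replicate numbers at a ZT did not deviate together: the median correlation of their deviations lay between -0.013 and 0.016 over 18 pairs in each comparison, so replicate numbers were not used as pairs.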

Additional observations from a re-analysis of the deposited data

Results flagged for a closer look

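The genotype effects at ZT2 differed between germ-free and conventional mice for 2 members in a test of the difference itself, Hmgcs1 (adjusted p = 0.0394) and Fdps (adjusted p = 0.0434), by edgeR's quasi-likelihood test. Both were higher in LKO than in WT in 3 of 3 SPF livers. Hmgcs1 was lower in 3 of 3 GF livers, though neither gene was called for genotype in GF mice at ZT2. The test within each ZT was added after the values by ZT had been seen.

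The 24 h rhythm of Insig2 differed between GF genotypes (adjusted p = 6.82e-09) and between SPF genotypes (adjusted p = 0.0173), and that of Stard4 between GF genotypes (adjusted p = 0.00611). Between GF LKO and SPF LKO the rhythms of Srebf2 (adjusted p = 0.0189), Hsd17b7 (adjusted p = 0.027) and Mvd (adjusted p = 0.0427) differed. Of all genes 1.12%, 6.38% and 5.34% were called between SPF genotypes, between GF genotypes and between GF LKO and SPF LKO. Leaving out any single library ended none of the calls of Insig2, Stard4, Srebf2 and Hsd17b7, with adjusted p up to 0.0414 for Insig2 in SPF mice and 0.0494 for Hsd17b7. That of Mvd ended without any of 19 of the 36 libraries (adjusted p up to 0.0777). Other settings ended more: with ZT as a factor only the GF call of Insig2 stood. Without the 4 libraries that went against their labels those of Hsd17b7 and Mvd ended, and with replicate numbers as a block the SPF call of Insig2 ended.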

How the results depend on the processing

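Counts of called members with ZT pooled were 5 for genotype in SPF mice, 3 with no filter on low counts and 10 without the 4 libraries that went against their labels, and leaving out single libraries gave 3 to 9. For genotype in GF mice (6) that range was 6 to 7, for GF against SPF in WT (25) 25 to 25, in LKO (25) 23 to 25, and for the difference of genotype effects 0 to 0, or 2 when tested within ZT. Summed over the 6 ZT, genotype in SPF mice had 22 calls (52 with no filter, 16 to 25 with a library left out), genotype in GF mice 7 (15 with DESeq2, 35 with no filter, 5 to 9), GF against SPF in WT 62 (117 with no filter, 47 to 76), in LKO 25 (58 with DESeq2, 109 with no filter, 38 without the 4 libraries, 13 to 34) and the difference of genotype effects 2 (13 with DESeq2, 23 with no filter, 0 to 7). The count of 13 in LKO came without SPF LKO ZT18 replicate 1 or GF LKO ZT18 replicate 3. Rhythmic members were 4 in SPF WT (7 with no filter, 2 by the rank test, 3 to 6), 19 in SPF LKO (7 with ZT as a factor, 0 by the rank test, 15 to 20), 20 in GF WT (17 to 22) and 18 in GF LKO (8 by the rank test, 15 to 19). In SPF LKO the rank test called 0 of all genes, so its count there does not bear on the members in particular. Rhythm differences were 1 between SPF genotypes (2 with no filter, 0 with ZT as a factor, 1 to 2), 2 between GF genotypes (1 with ZT as a factor, 2 to 3), 0 between GF WT and SPF WT (1 with no filter, 0 to 0) and 3 between GF LKO and SPF LKO (7 with no filter, 1 without the 4 libraries, 0 with ZT as a factor, 2 to 6). The highest count, 6, came without SPF LKO ZT10 replicate 1 or GF LKO ZT22 replicate 1. The causes of these shifts were not tested.

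With replicate numbers as a block, numbers that did not pair the livers, the rhythm differences were 0 between SPF genotypes, where Insig2 was at an adjusted p of 0.0798, and 1 between GF LKO and SPF LKO. Over the 6 ZT the block gave 23, 7, 44, 19 and 3 calls in place of 22, 7, 62, 25 and 2, and with ZT pooled 5, 9, 25, 25 and 0 in place of 5, 6, 25, 25 and 0. Under the block the pooled call of Stard4 in SPF mice ended (adjusted p = 0.0618).

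Of 928 values of single members under alternatives, 881 kept direction and side of the threshold, 21 passed it newly, 10 no longer passed it and 16 changed sign, all 16 from uncalled values near 0. Soat2 for genotype in SPF mice went to 0.0086 with ZT as a factor, 0.015 with the block and -0.045 to 0.027 with a library left out. Hsd17b7 for genotype in GF mice went to -0.0044 with DESeq2, -0.0043 with its size factors, -0.0069 with no filter, -0.025 without the 4 libraries, -0.029 with ZT as a factor, -0.028 with the block and -0.052 to 0.042 with a library left out. Insig2 between GF WT and SPF WT went to -0.15 with ZT as a factor, -0.13 with the block and -0.048 to 0.14 with a library left out. With a library left out, the genotype value in GF mice ran from -0.014 to 0.082 for Acat2, from -0.073 to 0.018 for Cyp51 and from -0.058 to 0.000298 for Srebf2.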
